A study of Danio rerio with 4 samples.

Results

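dre-miR-21 is the zebrafish form of the microRNA (miRNA) miR-21, and it was 1 of the 372 miRNA rows in the table. It was chosen by name with its reads, ranks, shares and ratios in these libraries already known, so all of its values are given as a description, with no test. The table held 1 row for it, with no arm named.

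The study asked which miRNAs are carried by the neural crest of zebrafish embryos, at a stage before its cells migrate (16 hpf) and a stage after (28 hpf). Embryos of the double-transgenic line Tg(sox10:eGFP, sox10:mRFP), in which the sox10 promoter drives both reporters, were dissociated and sorted by their GFP signal. The GFP+ cells are called NCC (neural crest cells), and the GFP- remainder of the same embryos is called non-NCC. Small RNAs were sequenced from NCC at 28 hours post fertilization (hpf), non-NCC at 28 hpf, NCC at 16 hpf and non-NCC at 16 hpf, with 1 library each, and no drug or mutation was part of any of these groups. All 4 groups carried the transgene, NCC are defined here by sox10 promoter activity alone, and no miRNA was fixed as a defining marker of neural crest, so the NCC label was not checked against one. The paper checked the sort by levels of foxd3, an NCC marker, and tbx5a, a non-NCC marker, and by mRFP in the eGFP+ cells.

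miRNAs are short RNAs that pair with messenger RNAs and lower their stability and translation. In people and mice, miR-21 is among the miRNAs most often raised in tumors and is known for repressing growth-restraining genes such as PDCD4 and the Sprouty genes. In zebrafish, miR-21 is known from the endocardium of the forming heart valves, where its expression depends on blood flow. In RefSeq's gene table for the assembly GRCz12tu, 2 genes encode its precursor. dre-mir-21-1 lies between rps6kb1a and ptrh2, and dre-mir-21-2 lies between vmp1 and tubd1. Neither lies inside a protein-coding gene in that table, and the single miR-21 row does not say which of them a read came from.

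The libraries differed widely in depth. At 28 hpf, NCC had 6502 recovered reads over 51 miRNAs and non-NCC had 1099312 over 237. At 16 hpf, NCC had 2340716 reads over 226 miRNAs and non-NCC had 140132389 over 339. The 16 rows of the miR-430 family, the early embryonic miRNAs that clear maternal messenger RNAs in zebrafish, made up 72.8% of all reads in 28-hpf NCC, 66.7% in 28-hpf non-NCC, 92.0% in 16-hpf NCC and 91.7% in 16-hpf non-NCC. Shares are therefore given both over all reads and over the reads that are left without those rows. Intervals are 95% limits of counting alone, since the protocol named no molecular identifiers and there was no second library of any group. They take each recovered read as 1 independent count. How reads that match several precursor genes were counted is not given in the sources used here. If such reads were counted more than once, the intervals of those miRNAs would be too narrow and shares would shift. At 16 hpf the row miR-338 had 2 reads in NCC and 26 in non-NCC, against 1 and 13 for miR-338-3p. The cause of this was not tested.

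miR-21 was read in all 4 libraries. At 28 hpf it had 40 reads in NCC (exact Poisson interval 28.6 to 54.5) and 13849 reads in non-NCC (13619 to 14082). At 16 hpf it had 49116 reads in NCC and 1757286 reads in non-NCC. The 28-hpf NCC value was thus by far the least precise of the 4. After division by the size factors of the authors, the normalized counts were 456 in NCC, against 1214 in non-NCC, at 28 hpf. At 16 hpf they were 379178 in NCC and 227626 in non-NCC. The stages were normalized apart, so normalized counts are compared within a stage only.

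As a share of all miRNA reads, miR-21 made up 0.615% in NCC at 28 hpf (exact Clopper-Pearson interval 0.440 to 0.837%) and 1.26% in non-NCC (1.24 to 1.28%). At 16 hpf it made up 2.10% in NCC (2.08 to 2.12%) and 1.25% in non-NCC (1.25 to 1.26%). NCC thus held both the lowest and the highest share, and the shares of the non-NCC libraries lay between them. Without the miR-430 rows, miR-21 took 2.26% of the reads in NCC at 28 hpf (1.62 to 3.07%) and 3.78% in non-NCC (3.72 to 3.84%). At 16 hpf, it took 26.2% in NCC (26.0 to 26.4%) and 15.2% in non-NCC (15.2 to 15.2%). On this scale both 28-hpf libraries lay below both 16-hpf libraries, and the order of NCC and non-NCC within each stage was unchanged.

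**Figure D1:**
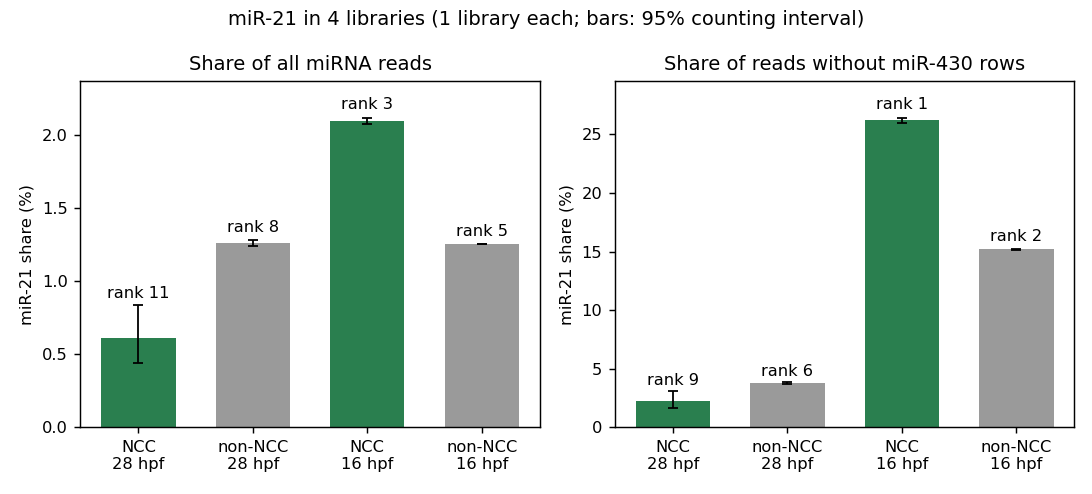
Share of miR-21 (percent) in NCC and non-NCC at 28 and 16 hpf, over all miRNA reads (left panel) and over reads without the miR-430 rows (right panel). Bars are single libraries, whiskers are 95% counting intervals and the rank of miR-21 stands above each bar. The 16-hpf NCC bar is the highest in both panels, at 2.10% and 26.2%, and the 28-hpf NCC bar is the lowest, at 0.615% and 2.26%.

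miR-21 took a lower share at 28 hpf than at 16 hpf in NCC over either total, and in non-NCC only without the miR-430 rows. Over all reads, the log2 ratio of the share at 28 hpf to that at 16 hpf was -1.77 in NCC (interval -2.26 to -1.32), a 3.41-fold lower share. In non-NCC it was 0.01 (-0.02 to 0.03), an interval that takes in no change. Without the miR-430 rows, the log2 ratio was -3.53 in NCC (-4.02 to -3.09), an 11.6-fold lower share at 28 hpf. In non-NCC it was -2.01 (-2.03 to -1.98), a 4.02-fold lower share. A share falls when other miRNAs rise as well as when miR-21 falls, and in bulk material fewer cells of a type and less RNA per cell cannot be told apart.

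At 28 hpf, miR-21 ranked 11 by reads in NCC and 8 in non-NCC over all rows, and 9 in NCC and 6 in non-NCC without the miR-430 rows. In NCC, miR-205-5p (an epithelial miRNA) had 68 reads, miR-10c-5p (the miR-10 family is encoded in Hox clusters) had 65 and miR-92a-3p (of the miR-17 to miR-92 cluster) had 59, just above the 40 reads of miR-21. miR-92b-3p with 33, miR-9-5p (a miRNA of neural progenitors) with 21 and miR-184 with 20 came just below. By the exact interval of the ratio of reads to those of miR-21, miR-92a-3p (0.971 to 2.26) and miR-92b-3p (0.504 to 1.34) could not be separated from it by counting. On the reads as counted, the intervals of the other 4 neighbours did not take in 1, the nearest being that of miR-10c-5p (1.08 to 2.47). They would be wider if reads that match several precursor genes were counted more than once, which was not tested. In non-NCC, miR-92a-3p with 39744, miR-10c-5p with 27166 and miR-92b-3p with 15386 reads ranked just above miR-21. miR-10a-5p with 13834, miR-181b-5p with 12861 and miR-10d-5p with 8665 ranked just below. Only miR-10a-5p could not be separated from it by counting.

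At 16 hpf, miR-21 ranked 3 in NCC and 5 in non-NCC over all rows, and 1 in NCC and 2 in non-NCC without the miR-430 rows. In NCC only miR-430b-3p, with 1415076 reads, and miR-430a-3p, with 727184 reads, exceeded the 49116 reads of miR-21. miR-10b-5p with 45024, miR-92a-3p with 30066 and miR-430c-3p with 9558 reads followed. With miR-430c-3p left out, miR-222a-3p, with 9027 reads, was the third row below it. miR-21, miR-10b-5p and miR-92a-3p together took 66.2% of the NCC reads outside the miR-430 family at this stage. In non-NCC, miR-430a-3p with 25293368, miR-10b-5p with 5012966 and miR-430c-3p with 1843809 reads ranked just above miR-21. miR-92a-3p with 920261, miR-10a-5p with 882225 and miR-10c-5p with 860278 reads ranked just below. No neighbour's counting interval overlapped that of miR-21 in either 16-hpf library, so on the reads as counted its rank there was resolved. No row tied with miR-21 in any of the 4 libraries.

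**Figure D2:**
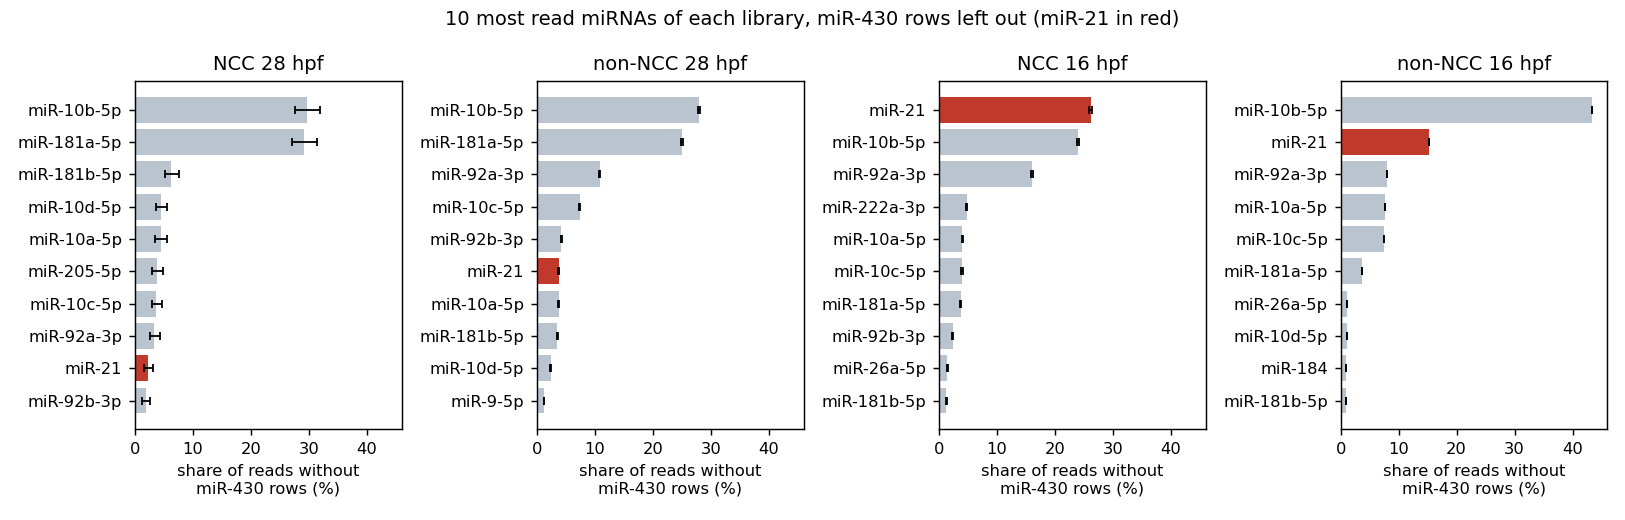
The 10 miRNAs with the most reads outside the miR-430 family in each library, as percent of the reads without miR-430 rows, with miR-21 in its own color. Each panel is 1 library, NCC and non-NCC at 28 hpf and then NCC and non-NCC at 16 hpf. miR-21 leads NCC at 16 hpf with 26.2%, and miR-10b-5p leads each of the other 3 libraries. In 28-hpf NCC the interval of miR-10b-5p (524 reads) overlaps that of miR-181a-5p (515 reads), so that lead is not resolved by counting.

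At 28 hpf, miR-21 was lower in NCC than in non-NCC. With the normalized counts of 456 in NCC and 1214 in non-NCC, the log2 ratio of NCC over non-NCC was -1.41 (exact Clopper-Pearson interval -1.90 to -0.97), a level 2.66-fold lower in NCC. At this depth, an equal level in both populations would have given 106 reads in NCC, and the 16-hpf ratio would have given 177, against the 40 reads observed. With totals without the miR-430 rows, an equal level would have given 66.8 reads. Of the 49 miRNAs with reads in both 28-hpf libraries, 17 (34.7%) were over 2-fold higher in non-NCC, the threshold of the study, and 12 (24.5%) were over 2-fold higher in NCC. miR-21 was 1 of the 17 by its point value, while its counting interval took in a 2-fold difference. Where each library had at least 10 reads, 7 of 20 miRNAs (35%) were over 2-fold higher in non-NCC and 2 were over 2-fold higher in NCC. Of these 20, 13 had a ratio below 1 and 6 had a ratio above 1, with a median log2 ratio of -0.52. The better read miRNAs thus leaned to non-NCC as a set. The ratio of miR-21 was higher than that of 9 of the 49 miRNAs (18.4%) and lower than that of 39.

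At 16 hpf, miR-21 was higher in NCC than in non-NCC. The normalized counts of 379178 in NCC and 227626 in non-NCC gave a log2 ratio of 0.74 (0.72 to 0.75), a level 1.67-fold higher in NCC. This was below the threshold of 2-fold. Of the 225 miRNAs with reads in both 16-hpf libraries, 60 (26.7%) were over 2-fold higher in NCC and 57 (25.3%) were over 2-fold higher in non-NCC. The ratio of miR-21 exceeded that of 153 of these miRNAs (68%) and was below that of 71. Of the 103 miRNAs that had at least 10 reads in each 16-hpf library, it exceeded 66 (64.1%). Among these ratios, that of miR-21 lay above the middle at 16 hpf and near the lower end at 28 hpf. A ratio needs a read in NCC, and at 28 hpf NCC had 51 miRNAs with reads, against 237 in non-NCC. The lower end at 28 hpf was therefore cut short by this requirement. miR-454b, with 0 reads in NCC and 1311 in non-NCC, was left out, though the upper limit of its log2 ratio was -1.45.

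The size at 28 hpf depended on how the libraries were scaled. With totals of all reads, the log2 ratio was -1.03, with TMM factors (edgeR's trimmed means) it was -1.0, with size factors from miRNAs with at least 10 reads it was -0.89, and with totals without the miR-430 rows it was -0.74. The level in NCC was lower under each of these 4 scalings, by 2.05-fold with totals of all reads, 2.0-fold with TMM, 1.86-fold with at least 10 reads and 1.67-fold with totals without miR-430. By point value it was over 2-fold lower with totals of all reads, at the threshold with TMM and short of it with the rest. The 28-hpf counting interval took in -1 under each of these scalings and under the size factors of the authors. Counting alone thus left the 2-fold threshold unresolved at 28 hpf. At 16 hpf the 4 scalings, taken likewise, gave 0.74, 0.51, 0.61 and 0.79, all higher in NCC and all under 2-fold. A scaling moves every miRNA of a stage alike, and the median over all miRNAs moved by up to 0.67 at 28 hpf and by up to -0.23 at 16 hpf. Because of this common shift, the distance of miR-21 from the median is set by the miRNAs counted and not by the scaling. It was -1.41 at 28 hpf and 0.74 at 16 hpf over all miRNAs with reads in both libraries, and -0.89 at 28 hpf and 0.61 at 16 hpf over those that had at least 10 reads in each.

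**Figure D3:**
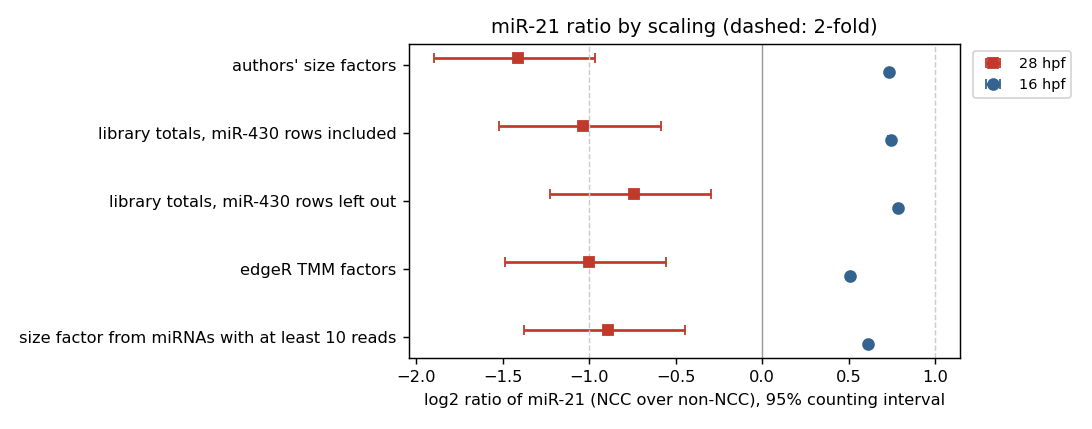
Log2 ratio of miR-21, NCC over non-NCC, under the size factors of the authors and 4 other scalings, at 28 hpf (squares) and 16 hpf (circles), with 95% counting intervals (narrower than the circles at 16 hpf). The 28-hpf points run between -1.41 and -0.74 and the 16-hpf points between 0.51 and 0.79, so no scaling brings a point across 0, while the dashed 2-fold line at -1 falls among the 28-hpf points.

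The log2 ratio at 28 hpf minus that at 16 hpf was -2.15 for miR-21 (exact conditional interval -2.63 to -1.70), a 4.43-fold change of the NCC to non-NCC ratio. The change was 3.43-fold with totals of all reads, 2.88-fold with totals without the miR-430 rows, 2.85-fold with TMM factors and 2.84-fold with size factors from at least 10 reads. Among the 49 miRNAs with reads in all 4 libraries, the median difference was -0.32, with 7 miRNAs lower than miR-21 and 41 higher. Moving across 1 was common among them, under size factors that put the median log2 ratio at 0 at each stage. 13 miRNAs had a ratio below 1 at 28 hpf and above 1 at 16 hpf, miR-21 among them, and 12 had the opposite order. A further 12 were above 1 at both stages, 10 were below 1 at both, and 2 had a ratio of exactly 1 at one of the stages.

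Limited to the 20 miRNAs with at least 10 reads in every library, 6, miR-21 among them, had this order and only 3 had a lower difference. These 3 were miR-92b-3p at -3.42, miR-92a-3p at -3.33 and miR-430a-3p at -2.16. miR-204-5p, a miRNA known from the lens and retina, came next after miR-21 at -2.11. Its log2 ratio at 28 hpf was 0.30 from 18 NCC reads (interval -0.46 to 0.96), so its side of 1 was not resolved. The differences of miR-430a-3p and miR-204-5p lay within the interval of miR-21 (-2.63 to -1.70). Counting thus did not resolve the order of these miRNAs. The paper names miR-204 among miRNAs reported earlier in NCC. At the other end, the difference was 2.65 for miR-205-5p and 2.15 for miR-100-5p. By point value, miR-21 was therefore among the 4 lowest of these 20.

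**Figure D4:**
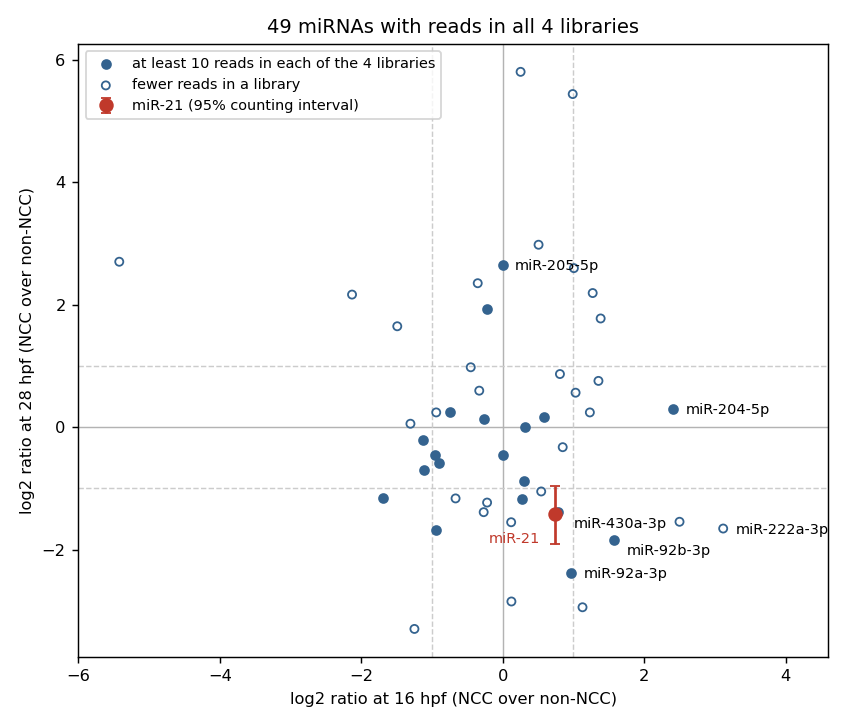
Log2 ratio of NCC over non-NCC at 28 hpf (vertical axis) and at 16 hpf (horizontal axis) for the 49 miRNAs with reads in all 4 libraries. Filled points have at least 10 reads in each library, the whisker is the 95% counting interval of miR-21 at 28 hpf and dashed lines mark 2-fold. miR-21, at -1.41 and 0.74, lies beside miR-430a-3p, at -1.39 and 0.78.

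Ratios of miR-21 reads to the reads of another miRNA of the same library need no scaling. They are given for 5 abundant miRNAs that were picked after their values had been seen. For each read of miR-10b-5p there were 0.0763 miR-21 reads in NCC, against 0.135 in non-NCC, at 28 hpf, while 16-hpf NCC had 1.09 and 16-hpf non-NCC had 0.351. For each read of miR-181a-5p, there were 0.0777 miR-21 reads in NCC, against 0.151 in non-NCC, at 28 hpf, while 16-hpf NCC had 6.86 and 16-hpf non-NCC had 4.12. Against both of these miRNAs, miR-21 was lower in NCC at 28 hpf, higher in NCC at 16 hpf and lower at 28 hpf than at 16 hpf in both populations.

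The order was different against miR-92a-3p. For each of its reads there were 0.678 miR-21 reads in NCC at 28 hpf (interval 0.442 to 1.03) and 0.348 in non-NCC, while 16-hpf NCC had 1.63 and 16-hpf non-NCC had 1.91. miR-21 was thus higher in NCC at 28 hpf and lower in NCC at 16 hpf when read against miR-92a-3p, whose own ratio moved further between the stages than that of miR-21. For each read of miR-430b-3p, there were 0.0101 miR-21 reads in NCC, against 0.0294 in non-NCC, at 28 hpf, while 16-hpf NCC had 0.0347 and 16-hpf non-NCC had 0.0174.

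Of these 5 ratios, that to miR-430a-3p varied least over the 4 libraries. There were 0.0529 miR-21 reads for each miR-430a-3p read in NCC at 28 hpf (0.0375 to 0.0727) and 0.0539 in non-NCC. At 16 hpf there were 0.0675 in NCC and 0.0695 in non-NCC. Put the other way, each miR-21 read stood beside 18.9 miR-430a-3p reads in NCC, against 18.5 in non-NCC, at 28 hpf, while 16-hpf NCC had 14.8 and 16-hpf non-NCC had 14.4. The counting intervals of NCC and non-NCC overlapped at 28 hpf and did not at 16 hpf (0.0669 to 0.0682 in NCC and 0.0694 to 0.0696 in non-NCC).

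**Figure D5:**
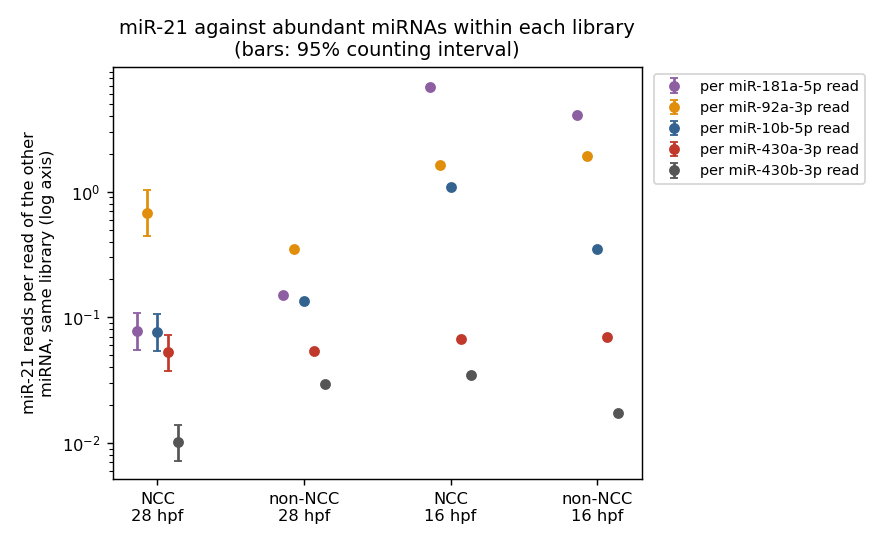
Reads of miR-21 for each read of 5 other miRNAs of the same library (log axis), in NCC and non-NCC at 28 hpf and then at 16 hpf, with 95% counting intervals. The points for miR-430a-3p stay between 0.0529 and 0.0695, while those for miR-181a-5p range between 0.0777 and 6.86.

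The miRNAs most like miR-21 over the 4 libraries were found from the log2 share of each miRNA, minus its mean over the libraries, by the root mean square (RMS) difference from miR-21. Of the 19 other miRNAs with at least 10 reads in each library, the nearest was miR-430a-3p, with an RMS difference of 0.18. It was followed by miR-430b-3p at 0.70, miR-430c-3p at 0.87, miR-92a-3p at 0.99 and miR-26a-5p at 1.21. In 28-hpf NCC, miR-430c-3p had 18 recovered reads and miR-26a-5p had 15, and fewer if any read was counted more than once. Of these 5, miR-430a-3p, miR-92a-3p and miR-26a-5p had ratios on the same side of 1 as miR-21 at both stages, miR-430b-3p had the opposite order and miR-430c-3p was below 1 at both. For miR-430a-3p, the log2 ratio was -1.39 (-1.49 to -1.28) at 28 hpf and 0.78 (0.77 to 0.78) at 16 hpf. For miR-92a-3p it was -2.37 at 28 hpf and 0.96 at 16 hpf. Whether miR-430 rows counted as candidates was settled after the values had been seen. Without them the nearest of 16 candidates were miR-92a-3p, miR-26a-5p, miR-10a-5p, miR-10b-5p and miR-10c-5p. A likeness over 4 points, each a single library whose depth all miRNAs share, is a description only.

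miR-21 was set beside a list of 10 other miRNAs known to promote tumors. At 28 hpf, 4 of the 10 had reads in both libraries, 2 of them over 2-fold higher in non-NCC and none over 2-fold higher in NCC, with a median log2 ratio of -1.12. At 16 hpf all 10 had reads in both, 6 were over 2-fold higher in non-NCC and 1 over 2-fold higher in NCC, with a median of -1.19. Apart from miR-221-3p, the 6 were of the miR-17 to miR-92 cluster, as is miR-92a-3p, so the list members are not unrelated. Over all miRNAs the median was 0 at both stages, as set by the size factors of the authors. The share of all miRNAs over 2-fold higher in NCC was 24.5% at 28 hpf and 26.7% at 16 hpf, and the share over 2-fold higher in non-NCC was 34.7% at 28 hpf and 25.3% at 16 hpf. The 1 higher in NCC was miR-222a-3p, known in human tumors for repressing KIT and p27, with a log2 ratio of 3.12. At 28 hpf its ratio was -1.65, from 7 reads in NCC and 2864 in non-NCC. miR-222a-3p and miR-92a-3p were the 2 of the 10 with a higher ratio than miR-21 at 16 hpf.

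Of 10 miRNAs known from vessels and valves, 2 had reads in both populations at 28 hpf, 1 of them over 2-fold higher in non-NCC (34.7% of all miRNAs), with a median log2 ratio of -1.41. Outside these, miR-24 had 4 reads in NCC and 0 in non-NCC, so it has no ratio. At 16 hpf all 10 had reads in both, 3 were over 2-fold higher in non-NCC, near the 25.3% of all miRNAs, none was over 2-fold higher in NCC and the median was -0.85. The ratio of miR-21 at 16 hpf was higher than that of 9 of them, miR-92a-3p being the exception. The study followed 4 miRNAs, with miR-145-5p as its non-NCC control and miR-338-3p, miR-199-3p and miR-133a-3p as candidates. The candidates came from the miRNAs that were higher in 16-hpf NCC in these libraries. The paper chose them by bioinformatic analyses and by their reported roles as tumor suppressors. Of the 4, only miR-133a-3p had reads in both populations at 28 hpf, with a log2 ratio of -1.54 from 2 reads in NCC. At 16 hpf, the 3 candidates were over 2-fold higher in NCC (26.7% of all miRNAs). The control miR-145-5p was not, at 0.44 from 1 read in NCC (interval -4.90 to 2.99). With the control included, the median of the 4 was 2.10. The ratio of miR-21, 0.74, was lower than that of miR-133a-3p at 2.50 and of miR-199-3p at 2.0. The ratio of miR-338-3p, 2.20, rested on 1 read in NCC and 13 in non-NCC (interval -3.21 to 4.93), so its order against miR-21 was not resolved.

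Shares of the markers of other cell types differed between the populations for some lists only, and their part in the miR-21 values was not tested. Of the reads without miR-430, the 8 epidermal miRNAs made up 3.90% in NCC, against 0.468% in non-NCC, at 28 hpf, while 16-hpf NCC had 0.599% and 16-hpf non-NCC had 0.671%. In the 28-hpf NCC library 2 of the 8 had reads, and 68 of their 69 reads were miR-205-5p. At 16 hpf, miR-205-5p had 1071 of the 1124 NCC reads of the list, with a log2 ratio of -0.0023. At that stage 5 of the 8 were over 2-fold higher in non-NCC, against 25.3% of all miRNAs, and the list median was -2.16. The 4 neuronal miRNAs made up 1.87% in NCC (1.29 to 2.61%), against 1.27% in non-NCC (1.24 to 1.31%), at 28 hpf, and these intervals overlapped. At 16 hpf they made up 0.236% in NCC and 0.625% in non-NCC. miR-9-5p had 21 of the 33 NCC reads at 28 hpf and 427 of the 442 at 16 hpf, with log2 ratios of -0.70 and -1.11. At 28 hpf, miR-124-3p had 0 reads in NCC and 30 in non-NCC. miR-219-5p (2.70, from 9 NCC reads) and miR-128-3p (5.80, from 3) were higher in NCC. The 4 muscle miRNAs made up 0.113% in NCC (2 reads, 0.0137 to 0.408%), against 0.213% in non-NCC (0.198 to 0.228%), at 28 hpf. At 16 hpf they made up 0.0437% in NCC (0.0348 to 0.0542%) and 0.0365% in non-NCC (0.0354 to 0.0376%). The counting intervals of the populations thus overlapped at both stages. miR-133a-3p had 64 of the 82 muscle reads in 16-hpf NCC, while miR-206-3p had a log2 ratio of -1.44, and miR-1 and miR-133b-3p had 0 reads in 16-hpf NCC, against 20 and 618 in 16-hpf non-NCC. The miRNAs of endothelium and blood cells stayed low in every library. The endothelial miRNAs miR-126a-3p and miR-126a-5p had 0 reads in NCC at 28 hpf, which allows up to 0.170% (3 reads of the total without miR-430), and 0.00655% in non-NCC. At 16 hpf they had 0.00639% in NCC and 0.0228% in non-NCC. The 3 erythroid and 5 leukocyte miRNAs also had 0 reads in NCC at 28 hpf, and took at most 0.0484% in any other library. At 16 hpf the erythroid members went opposite ways. The log2 ratio was 3.08 for miR-451 (43 NCC reads) and -5.47 for miR-144-5p (2 NCC reads). miR-144-3p had 0 reads in NCC and 15 in non-NCC.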

How the data were processed

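The authors sorted cells by FACS, made small RNA libraries with the TruSeq small RNA kit and sequenced them on a NextSeq instrument. Per the submitters' processing notes, Bowtie, HTSeq and DESeq2 were used with GRCz11. Their versions are not given in the sources used here. Nor is the handling of reads that match several precursor genes, as for miR-21. The deposited values, taken as a signal that is never negative, are counts the authors divided by a DESeq2 size factor within each stage. Dividing each column by its smallest nonzero value (11.4 in 28-hpf NCC, 0.0877 in 28-hpf non-NCC, 7.72 in 16-hpf NCC and 0.130 in 16-hpf non-NCC) gave whole reads to within 4.02e-07 of a read.

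Ratios were taken on the normalized counts with no pseudocount. Exact Clopper-Pearson, Poisson and conditional odds-ratio intervals (95%) were computed with Python 3.11.15, numpy 2.4.6, pandas 2.3.3 and scipy 1.17.1, and checked on simulated data, figures with matplotlib 3.10.9 and TMM factors with R 4.3.3 and edgeR 4.0.16. With 1 library per group no test was run. The named miRNAs were miR-21, the 3 rows on either side of it by rank, the 5 most like it and 3 lists. These, the markers and miR-21 itself were chosen with earlier results of these data known, and other names were added after their values were seen. The alternatives were 4 scalings, 2 pseudocounts, a minimum of reads, identical rows counted once, the miR-430 rows left out and, chosen after seeing the data, reads divided by 2 and miR-430 rows left out as likeness candidates.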

Additional observations from a re-analysis of the deposited data

Results flagged for a closer look

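The direction of miR-21 between the populations was opposite at the 2 stages, lower in NCC than in non-NCC at 28 hpf and higher in NCC than in non-NCC at 16 hpf. The log2 ratio of NCC over non-NCC was -1.41 at 28 hpf and 0.74 at 16 hpf, a difference of -2.15. This difference was not tested, because each population had 1 library at each stage. Among the 49 miRNAs with reads in all 4 libraries, 13, miR-21 among them, had this order of directions and 12 the opposite one, so a change of direction was common. The size factors of the authors put the median log2 ratio at 0 at each stage, which places about as many miRNAs above 1 as below. Only 20 of the 49 had at least 10 reads in every library.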

How the results depend on the processing

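The direction of miR-21 at each stage was kept under the 4 other scalings. The 2 pseudocounts and the division of reads by 2 could not have turned it. Read against miR-92a-3p of the same library, miR-21 had the opposite direction at both stages. Against miR-430a-3p it was lower in NCC at 16 hpf. At 28 hpf the log2 ratio was -0.74 with totals without miR-430 and -0.89 with size factors from miRNAs with at least 10 reads. Both were short of 2-fold by point value, with counting intervals that took in 2-fold. At 16 hpf it was 0.79 with totals without miR-430, 0.51 with TMM and 0.61 with at least 10 reads. The difference between stages was -1.53, -1.51 and -1.51 under those 3 scalings. Leaving out the miR-430 rows put miR-21 at rank 9 in 28-hpf NCC, 6 in 28-hpf non-NCC, 1 in 16-hpf NCC and 2 in 16-hpf non-NCC. Of the 5 miRNAs most like miR-21, 4 remained with a minimum of 3 reads, where miR-222a-3p took the place of miR-26a-5p, and 2 remained with miR-430 rows left out as candidates. The cause of these moves was not tested beyond the change of scaling or candidates itself. The other 20 values moved by less than their counting intervals or by less than 1.5 times, but not all of them could have moved. Division of reads by 2 leaves a ratio as it was, and library totals cancel in the likeness to miR-21. With reads divided by 2, chosen after seeing the data, the 28-hpf interval widened to -2.12 to -0.78. The planned division where every count is a multiple of the number of precursor genes was not run, since 1 of the 4 counts is odd. No paired analysis was possible because each group has 1 library. Depth limits the 28-hpf NCC values most, which rest on 6502 reads.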
